A study of Mus musculus with 12 samples.

Results

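The forkhead genes encode the FOX transcription factors, which share a winged-helix DNA-binding domain and are grouped by letters into subclasses. Members were taken as every gene whose symbol consists of Fox, a subclass letter from a to s, a number and at most a further letter. This rule uses no measured value. It found 43 genes among the 19938 genes of the adult table and 37 among the 18194 genes of the newborn table, and the 37 were all among the 43. Each gene was represented by its probe set of highest mean.

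The adult groups, all at 8 weeks and of single animals, were ovaries labelled Foxl2 mutant (n = 3), whose genotype is given as Foxl2 flox/flox x CreEBD, wild-type testes (n = 3, part of an organ each) and wild-type ovaries (n = 2). The newborn groups, at postnatal day 3 (P3), were Foxl2 KO ovaries (n = 2) and wild-type ovaries (n = 2), and each P3 array carried RNA pooled from more than 10 females. The sources used here do not say what drives the Cre, when it was activated, which part of Foxl2 is removed or whether the wild-type animals carry the Cre. Adult levels are log2 RMA values, whereas P3 levels are linear MAS5 signals from another array, so no test was made between the tables. Adult differences are log2 differences, and the value after their ± sign is a standard error (SE), whereas means carry their SD.

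Forkhead factors bind DNA as monomers, or as dimers in the FOXP subclass, and many of them set the identity of a cell type. In the ovary FOXL2 maintains granulosa cells, the somatic cells that surround and nourish the oocyte. FOXO1 acts in granulosa cells of growing follicles and FOXO3 in the mouse oocyte, where it restrains the activation of dormant follicles. FOXO proteins leave the nucleus when phosphorylated by AKT, so their RNA level and their activity are separate quantities.

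The organ labels were checked on marker genes. The mean level of 15 spermatocyte and spermatid markers was 3.64 to 3.78 on mutant ovary arrays, 10.62 to 10.71 on testis arrays and 3.81 to 3.86 on wild-type ovary arrays. The mean level of 3 Y-linked genes was 2.91 to 2.95 in mutant ovaries, 5.05 to 5.06 in testes and 3.01 to 3.07 in wild-type ovaries. The 2 wild-type ovaries differed from each other in cell type markers. The mean of 14 granulosa markers was 9.33 in wild-type ovary 1 and 8.53 in wild-type ovary 2, that of 15 oocyte markers 7.11 and 5.65, and that of 4 corpus luteum markers 8.05 and 9.80. Mutant ovaries had 7.45 to 7.57 for granulosa markers, 6.78 to 7.00 for oocyte markers and 7.84 to 9.06 for corpus luteum markers. Sertoli cell markers, of which 14 were measured, averaged 8.41 to 8.67 in mutant ovaries, against 6.13 and 6.40 in wild-type ovaries. Whole organs were measured, so fewer cells of a type and less RNA per cell cannot be told apart, and the part of cell composition in the differences below was not tested. The forkhead genes differed between the wild-type ovaries too, by up to 1.28 for Foxo1 and 1.15 for Foxp2, and 23 of the 43 were higher in wild-type ovary 1.

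In adult Foxl2 mutant ovaries 8 of the 43 forkhead genes (18.6%) passed the threshold against wild-type ovary, which is an adjusted p under 0.05 by limma, adjusted over all genes of the table with the Benjamini-Hochberg method. Of all genes 16.2% passed. Foxl2, Foxo1, Foxp1, Foxp2 and Foxm1 were lower, while Foxq1, Foxo3 and Foxj2 were higher. The 3 higher members made up 6.98% of the family, against 9.55% of all genes, and the 5 lower members 11.6%, against 6.66% of all genes. The median difference was -0.08 over the members and -0.02 over all genes (log2). The share of members called lay near that of all genes and is no result about the family as a whole. Some members that did not pass, such as Foxk2, Foxe3 and Foxs1, also had all mutant arrays on the same side of both wild-type ovaries. The share of all genes with such separation in adults was not counted, so separation is given below as a description.

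**Figure D1:**
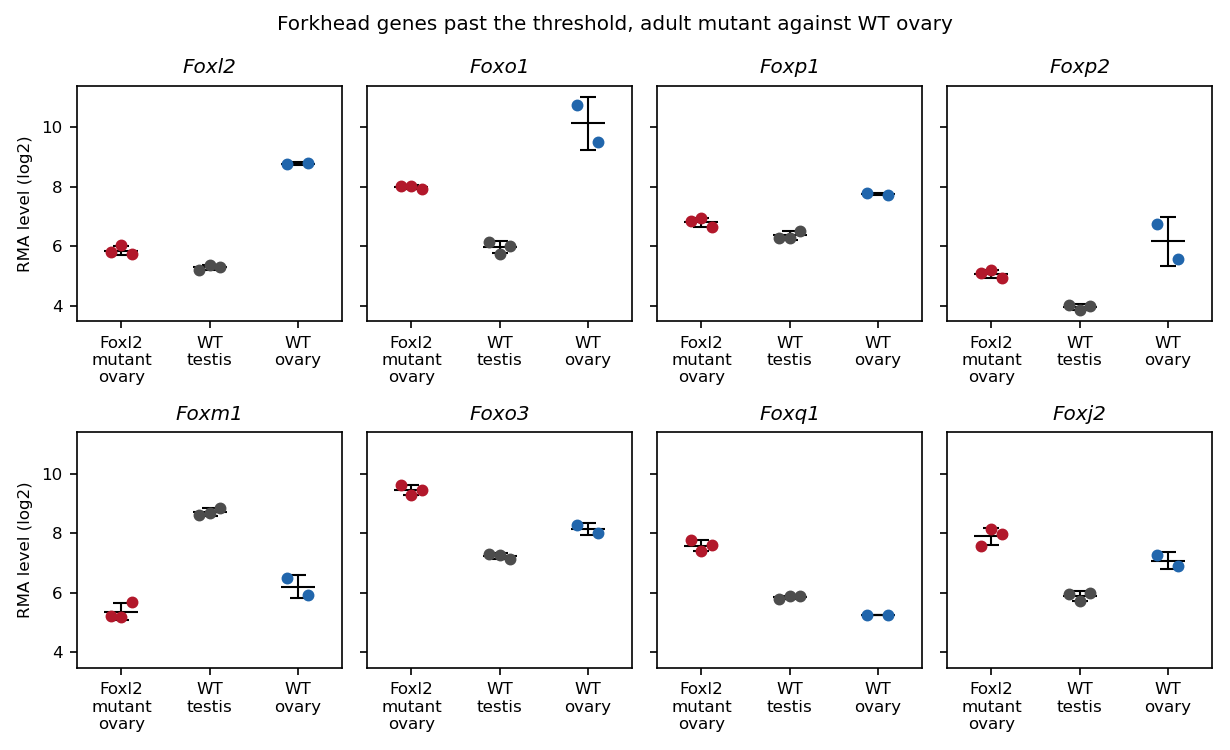
RMA level (log2) of the 8 forkhead genes past the threshold in Foxl2 mutant against wild-type (WT) ovary, by group; points are arrays, long bars are means and whiskers are SD (n = 3, 3 and 2). Foxl2, Foxo1, Foxp1 and Foxp2 were lower and Foxo3, Foxq1 and Foxj2 higher on every mutant ovary array than on both WT ovary arrays, and Foxm1 was highest in testis.

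Foxl2, the targeted gene, read 5.81, 6.04 and 5.73 on mutant ovary arrays, 5.22, 5.38 and 5.31 on testis arrays, and 8.75 and 8.81 on wild-type ovary arrays. The mutant arrays all lay far below both wild-type ovaries and above the testes, which have no granulosa cells. Foxl2 was 7.59-fold lower in mutant than in wild-type ovary (log2 difference -2.92 ± 0.13, SE; adjusted p = 5.08e-07). It was 1.47-fold higher in mutant ovary than in testis (0.55 ± 0.12; adjusted p = 0.0020). The sources used here do not say whether its probes lie inside the deleted part. The call therefore checks the labels only if the deletion removes or silences the measured stretch. The RefSeq sequence of the 250 bases upstream of the Foxl2 start (GRCm38.p6, chr9:98955357-98955606, plus strand) is shown in full as the promoter of the gene whose loss defines the groups.
Foxl2: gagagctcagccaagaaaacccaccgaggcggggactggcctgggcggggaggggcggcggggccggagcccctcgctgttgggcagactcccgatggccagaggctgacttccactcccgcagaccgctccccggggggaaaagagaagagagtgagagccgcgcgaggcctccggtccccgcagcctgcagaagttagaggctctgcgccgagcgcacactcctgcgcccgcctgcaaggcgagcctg
This window holds none of the motifs searched on both strands, which were the forkhead core motifs TGTTTAC and TGTTTGC and the CCAAT box.

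Of 9 measured genes listed as FOXL2 targets, 4 were lower and 2 higher in mutant than in wild-type ovary, beside 6.66% lower and 9.55% higher of all genes. Nr5a2, a nuclear receptor needed for ovulation, had a log2 difference of -3.74 ± 0.16, Fst, the activin-binding protein follistatin, -3.49 ± 0.16, and Inhba, an activin subunit, -3.21 ± 0.28. Sox9, the Sertoli cell factor that FOXL2 represses, had 3.68 ± 0.14 (adjusted p = 1.37e-07). Granulosa markers as a list had a median of -1.04, with 7 of 14 lower and 2 higher, Kitl, the ligand of the oocyte receptor KIT, at 1.21 ± 0.15 and Amhr2, the receptor of anti-Müllerian hormone, at 1.92 ± 0.29. The higher count was 4 when wild-type ovary 1 was left out. Foxl2 itself stands on that list. Nr5a2, Fst and Inhba stand on both the granulosa and the FOXL2 target list, so the lists are not independent.

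The FOXO genes encode the factors restrained by insulin and growth factor signalling through PI3K and AKT. Of the 4 members measured in adults, Foxo1 was lower and Foxo3 higher in mutant than in wild-type ovary, and Foxo4 and Foxo6 did not pass the threshold. Foxo1 read 8.03, 8.03 and 7.91 on mutant ovary arrays, 6.15, 5.75 and 6.02 on testis arrays, and 10.76 and 9.49 on wild-type ovary arrays. The mutant ovaries were alike and lay below both wild-type ovaries, which differed from each other by 1.28. The log2 difference was -2.14 ± 0.29 (4.40-fold lower; adjusted p = 0.000686). With wild-type ovary 1 left out it was -1.50, with the other left out -2.77, and the gene passed the threshold both ways. Wild-type ovary 1, where Foxo1 was higher, was also the ovary with the higher granulosa and oocyte marker means given above. Their part in the size of the difference was not tested. In testis Foxo1 was 17.8-fold lower than in wild-type ovary (-4.15 ± 0.29), the largest absolute difference of any member in that comparison.

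Foxo3 moved the other way in the mutant. Its levels were 9.62, 9.28 and 9.45 in mutant ovaries, 7.32, 7.28 and 7.13 in testes, and 8.29 and 8.00 in wild-type ovaries. All mutant ovaries were above all other adult arrays and all testes below them. The difference from wild-type ovary was 1.30 ± 0.14 in mutant ovary (2.47-fold higher; adjusted p = 0.00013) and -0.90 ± 0.14 in testis (1.87-fold lower). Promoter windows of the Foxo pair that moved in opposite directions are set side by side. They are the 250 bases upstream of the starts in RefSeq (GRCm38.p6), Foxo1 at chr3:52268087-52268336 on the plus strand and Foxo3 at chr10:42276696-42276945 on the minus strand, with CCAAT-box matches in capitals (ATTGG is the box read on the other strand).
Foxo1: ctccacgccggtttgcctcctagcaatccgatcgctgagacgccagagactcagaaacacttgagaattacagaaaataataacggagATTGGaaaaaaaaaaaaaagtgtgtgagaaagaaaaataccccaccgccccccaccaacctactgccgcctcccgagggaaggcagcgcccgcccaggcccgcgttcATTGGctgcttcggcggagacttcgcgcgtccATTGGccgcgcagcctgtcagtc
Foxo3: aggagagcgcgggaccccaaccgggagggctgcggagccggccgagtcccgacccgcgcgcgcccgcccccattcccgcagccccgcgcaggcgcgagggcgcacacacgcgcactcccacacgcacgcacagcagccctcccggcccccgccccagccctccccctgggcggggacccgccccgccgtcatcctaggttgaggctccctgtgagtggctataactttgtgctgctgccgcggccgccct
The Foxo1 window holds 3 such matches and is 56% G and C, and the Foxo3 window holds none and is 76.4% G and C. The CCAAT box was present in 33.8% of 32851 windows of the same length upstream of mouse genes. A match of letters is a description and not evidence that a factor binds there.

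Foxo4 read 6.24, 6.04 and 5.76 in mutant ovaries, 5.13, 4.97 and 4.98 in testes, and 6.15 and 6.13 in wild-type ovaries. Foxo6, a member studied mostly in brain, read 5.66, 5.71 and 5.93 in mutant ovaries, 4.43, 4.33 and 4.35 in testes, and 5.41 and 5.42 in wild-type ovaries. For both, testes were the lowest arrays. Against wild-type ovary the testis difference was -1.11 ± 0.16 for Foxo4 and -1.05 ± 0.13 for Foxo6. The mutant difference was -0.13 ± 0.16 for Foxo4 (adjusted p = 0.64) and 0.35 ± 0.13 for Foxo6 (adjusted p = 0.106), although all 3 mutant ovaries exceeded both wild-type ovaries in Foxo6.

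Genes that control FOXO proteins, and genes known as FOXO targets, were examined as lists. Of 16 measured regulators, 3 were higher and 1 lower in mutant than in wild-type ovary, with a list median of 0.05, beside 9.55% higher and 6.66% lower of all genes. The counts depended on the wild-type ovaries, with 6 higher and 2 lower when wild-type ovary 1 was left out and 3 and 3 when the other was. Sgk3, a kinase related to AKT, had the largest difference at 2.32 ± 0.17 (adjusted p = 1.03e-05). Pik3cb, a catalytic subunit of PI3K, differed by 0.73 ± 0.16 and Akt2 by 0.63 ± 0.10, whereas Skp2, a ubiquitin ligase subunit, was lower by -0.57 ± 0.13. Of 23 measured FOXO targets, 3 were higher and 4 lower, with a median of 0.02. Lower targets numbered 6 when wild-type ovary 1 was left out, 2 when the other was, 2 when mutant ovary 3 was, and 1 with only the 2 groups in the fit. Sesn1, a stress-induced inhibitor of mTORC1, differed by 1.20 ± 0.13, Irs2, an insulin receptor substrate, by 0.96 ± 0.19 and the repressor Bcl6 by 0.90 ± 0.20, whereas Cat, the antioxidant enzyme catalase, was lower by -0.92 ± 0.22. The FOXO targets thus changed in both directions, with a list median close to that of all genes. In testis against wild-type ovary 15 of the 23 targets were lower and 2 higher (median -1.02), against 35.9% lower and 24.4% higher of all genes. Cdkn1b, the cell cycle inhibitor p27, was the furthest below at -3.09 ± 0.36. The cell types of the 2 organs differ throughout, and their part was not tested.

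The FOXP genes encode factors that form dimers with one another. Foxp1 and Foxp2 were lower in mutant than in wild-type ovary, Foxp4 had a positive difference that missed the threshold, and Foxp3 was dim in every group. Foxp1 read 6.84, 6.94 and 6.64 in mutant ovaries, 6.28, 6.29 and 6.53 in testes, and 7.78 and 7.74 in wild-type ovaries. The wild-type ovaries agreed closely and lay above all other arrays. The difference was -0.95 ± 0.14 in mutant ovary (1.93-fold lower; adjusted p = 0.00103) and -1.39 ± 0.14 in testis (2.63-fold lower). RefSeq gives Foxp1 several starts, and 1 of the windows upstream of them (GRCm38.p6, chr6:99520994-99521243, minus strand) holds a forkhead motif, TGTTTGC, in capitals here.
Foxp1: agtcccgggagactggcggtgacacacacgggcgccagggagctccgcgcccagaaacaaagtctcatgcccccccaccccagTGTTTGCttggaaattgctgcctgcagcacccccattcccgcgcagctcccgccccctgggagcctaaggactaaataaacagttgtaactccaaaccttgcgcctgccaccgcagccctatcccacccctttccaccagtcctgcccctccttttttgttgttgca
The motif occurred in 4.3% of all windows and in 2 of the 33 windows, from 28 forkhead genes, that the table holds, which were this one and a window of Foxj3. The related motif TGTTTAC occurred in 3.17% of all windows and in 1 of the forkhead windows, that of Foxa1.

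Foxp2, best known for its role in speech and vocal learning, read 5.11, 5.20 and 4.93 in mutant ovaries, 4.04, 3.85 and 4.00 in testes, and 6.74 and 5.59 in wild-type ovaries. The groups did not overlap, but the wild-type ovaries lay 1.15 apart. Its mutant difference of -1.08 ± 0.27 (2.12-fold lower; adjusted p = 0.021) was -0.51 with wild-type ovary 1 left out (adjusted p = 0.0689) and -1.66 with wild-type ovary 2 left out, and it missed the threshold without mutant ovary 1 or 3 (adjusted p = 0.0536 and 0.0652). In testis the difference was -2.20 ± 0.27 (4.60-fold lower).

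Foxp4 was measured at 7.74, 7.70 and 7.96 in mutant ovaries, 5.38, 5.27 and 5.65 in testes, and 7.49 and 6.80 in wild-type ovaries. Every mutant ovary exceeded both wild-type ovaries, and the testes were far lower. The mutant difference was 0.66 ± 0.20 with an adjusted p of 0.055, with 1.00 when wild-type ovary 1 was left out (adjusted p = 0.0029) and 0.31 when wild-type ovary 2 was (adjusted p = 0.31). In testis Foxp4 was 3.28-fold lower than in wild-type ovary (-1.71 ± 0.20). Foxp3, which defines regulatory T cells, averaged 4.41 ± 0.093 in mutant ovaries, 4.42 ± 0.12 in testes and 4.20 ± 0.29 in wild-type ovaries (SD). Foxp3 lay under the median of all genes on every adult array.

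FOXM1 drives genes of the G2 and M phases in dividing cells. Foxm1 read 5.22, 5.18 and 5.69 in mutant ovaries, 8.60, 8.68 and 8.86 in testes, and 6.49 and 5.93 in wild-type ovaries. Testes, which hold dividing and meiotic germ cells, were the highest arrays and mutant ovaries the lowest. The mutant difference was -0.84 ± 0.20 (1.79-fold lower; adjusted p = 0.0181). Without wild-type ovary 1 it was -0.56 (adjusted p = 0.0886), and it also missed the threshold without mutant ovary 1 (-0.77; adjusted p = 0.0578) or mutant ovary 2 (-0.75; adjusted p = 0.0539). In testis Foxm1 was 5.67-fold higher than in wild-type ovary (2.50 ± 0.20), the largest positive difference of any member there, and mutant ovary was 10.2-fold below testis.

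FOXM1 target genes were lower as a list in mutant ovary. Of 15 measured, 10 were lower and 0 higher, against 6.66% lower and 9.55% higher of all genes, and the list median was -0.98. Top2a, the topoisomerase of dividing cells, differed by -2.42 ± 0.15 (adjusted p = 3.28e-06), Ccnb2, a mitotic cyclin, by -2.03 ± 0.34, the checkpoint kinase Bub1 by -1.75 ± 0.18 and Aurkb, a kinase of chromosome segregation, by -1.71 ± 0.17. The 5 that did not pass, Aurka, Cdc25b, Birc5, Bub1b and Cks1b, had differences of -0.55 to -0.19. The count of lower targets was 10 with wild-type ovary 1 left out and 12 with the other left out. In testis against wild-type ovary the list ran the other way, with 10 of 15 higher and 3 lower and a median of 1.61. Of all genes 24.4% were higher and 35.9% lower there, with a median of -0.15. Nek2, a centrosome kinase, had 3.79 ± 0.17 in testis. The array means of the list were 5.72 to 5.84 in mutant ovaries, 7.84 to 7.94 in testes, and 7.03 and 6.56 in wild-type ovaries 1 and 2. In the same comparison 7 of 14 granulosa markers were lower, and their part in the list's difference was not tested.

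**Figure D2:**
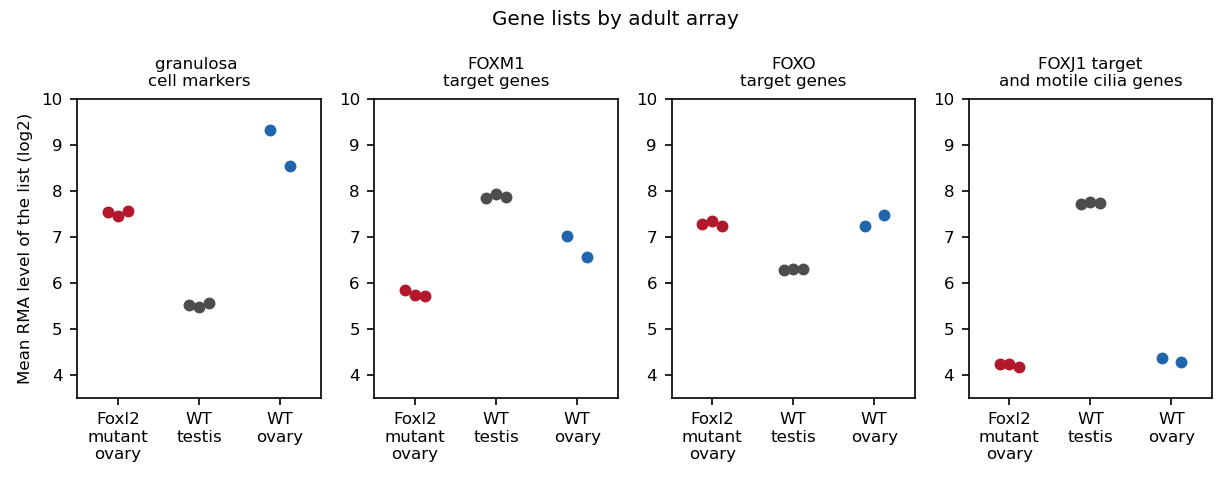
Mean RMA level (log2) of 4 gene lists on each adult array; each point is the mean over the measured genes of the list on 1 array. Granulosa markers and FOXM1 targets were lower on all mutant ovary arrays than on both wild-type (WT) ovary arrays, FOXO targets were lowest in testis, and FOXJ1 and motile cilia genes were high in testis alone.

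Foxq1 had the largest positive difference of the family in mutant against wild-type ovary. It read 7.76, 7.39 and 7.61 in mutant ovaries, 5.79, 5.89 and 5.88 in testes, and 5.25 in both wild-type ovaries. The groups were fully separated, with mutant ovaries above the testes as well. Foxq1, known in the mouse for hair shaft differentiation and gastric acid secretion, was 5.04-fold higher in mutant than in wild-type ovary (2.33 ± 0.14; adjusted p = 2.34e-06). It was 1.52-fold higher in testis than in wild-type ovary (0.60 ± 0.14), and 3.32-fold higher in mutant ovary than in testis (1.73 ± 0.12). Foxq1 lay above the median of all genes on 6 of the 8 adult arrays, and both wild-type ovaries were under it. Folds against wild-type ovary therefore rest on a level close to background, and their size is uncertain. In the RefSeq gene table Foxq1 neighbours Foxf2 and Foxc1. Foxf2, a factor of mesenchyme, averaged 3.53 ± 0.070 in mutant ovaries, 3.29 ± 0.15 in testes and 3.36 ± 0.33 in wild-type ovaries, and its mutant difference was 0.17 ± 0.15 (adjusted p = 0.52). Foxc1, which in the mouse is needed for germ cell migration and early follicles, had a mutant difference of -0.47 ± 0.17 (adjusted p = 0.0897), with all mutant arrays below both wild-type ovaries, and a testis difference of -0.76 ± 0.17. Neither neighbour passed in mutant against wild-type ovary.

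The FOXJ subclass holds Foxj1, the master regulator of motile cilia, and the broadly expressed Foxj2 and Foxj3. Foxj2 read 7.58, 8.15 and 7.97 in mutant ovaries, 5.95, 5.72 and 6.01 in testes, and 7.28 and 6.89 in wild-type ovaries. Mutant ovaries were highest and testes lowest with no overlap. Its mutant difference of 0.82 ± 0.19 (1.76-fold higher; adjusted p = 0.0154) missed the threshold without wild-type ovary 2 (0.62; adjusted p = 0.0771). The testis difference was -1.19 ± 0.19. Foxj3 read 7.78, 7.54 and 7.66 in mutant ovaries, 6.48, 6.28 and 6.70 in testes, and 7.87 and 7.12 in wild-type ovaries. Mutant and wild-type ovaries overlapped (0.16 ± 0.21; adjusted p = 0.671), and the testes were lower (-1.01 ± 0.21). Foxo6, its neighbour in the gene table, was also lower in testis, as given above.

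Foxj1 was dim on all arrays, at 4.15, 4.18 and 4.22 in mutant ovaries, 4.83, 4.85 and 5.35 in testes, and 4.45 and 4.44 in wild-type ovaries. All mutant arrays were below both wild-type ovaries, with a difference of -0.26 ± 0.17 that did not pass (adjusted p = 0.358). Testis was higher than wild-type ovary (0.57 ± 0.17; adjusted p = 0.0124). Of 17 measured FOXJ1 targets and motile cilia genes, 13 were higher and 1 lower in testis than in wild-type ovary, beside 24.4% and 35.9% of all genes, with a median of 3.92, and Spag6l, of the central apparatus of the axoneme, had 6.14 ± 0.13. Sperm flagella use the same axonemal proteins. In mutant against wild-type ovary 0 of the 17 were higher and 2 lower, Cfap126 (-0.61 ± 0.15) and Tekt2 (-0.43 ± 0.13), beside 6.66% lower of all genes. Lower genes numbered 0 without wild-type ovary 1, without either mutant ovary 1 or 3, with only the 2 groups in the fit or with the replicate block, and 1 without mutant ovary 2.

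Among the FOXK and FOXN genes no member passed in mutant against wild-type ovary. Foxk1 and Foxk2 repress autophagy genes and are expressed in most cells. Foxk2 averaged 7.70 ± 0.062 in mutant ovaries, 8.29 ± 0.10 in testes and 7.82 ± 0.059 in wild-type ovaries (SD), and was 1.39-fold higher in testis than in wild-type ovary (0.47 ± 0.11). Foxk1 averaged 7.43 ± 0.078 in mutant ovaries, 7.29 ± 0.034 in testes and 7.38 ± 0.13 in wild-type ovaries and passed in none of the adult comparisons. Foxn3, linked to cell cycle checkpoints, read 8.68, 8.58 and 8.43 in mutant ovaries, 6.83, 7.08 and 6.78 in testes, and 7.98 and 8.52 in wild-type ovaries. Mutant and wild-type ovaries overlapped (0.32 ± 0.17; adjusted p = 0.265), and testes were 2.55-fold lower than wild-type ovaries (-1.35 ± 0.17). A second Foxn3 probe set gave a mutant difference of 0.58, and the gene passed when its probe sets were averaged (0.45; adjusted p = 0.0295). Foxn2 was lower in testis by -0.77 ± 0.15, while Foxn1, the factor of thymic epithelium, and Foxn4, known in the retina, were dim.

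Several members are factors of mesenchyme and vessels. Foxc2, which acts in lymphatic vessels, Foxf1, of lung and gut mesenchyme, Foxl1, of gut mesenchyme, and Foxs1, found in perivascular cells, did not pass in mutant against wild-type ovary. Their differences were -0.17 ± 0.15 for Foxc2, -0.10 ± 0.17 for Foxf1, -0.33 ± 0.14 for Foxl1 and 0.08 ± 0.12 for Foxs1. In testis against wild-type ovary all 4 were lower, with -0.59 ± 0.15 for Foxc2, -0.54 ± 0.17 for Foxf1, -0.48 ± 0.14 for Foxl1 and -0.64 ± 0.12 for Foxs1. Not every such member was lower there. Foxf2, also of mesenchyme, had -0.075 ± 0.15 (adjusted p = 0.694) and Foxd1, of kidney stroma, -0.16 ± 0.11 (adjusted p = 0.212), and both were dim. Of the lower members, Foxc2 and Foxl1 were dim too, under the median of all genes on all 8 adult arrays. Foxs1 kept its call whichever array was left out. Foxc2 and Foxl1 lost theirs without wild-type ovary 1 (-0.38 and -0.42; adjusted p = 0.0786 and 0.067), and Foxf1 without testis 2 (-0.46; adjusted p = 0.0658) or wild-type ovary 2 (-0.39; adjusted p = 0.119). Foxc2, Foxf1 and Foxl1 neighbour each other in the gene table. Markers of vessels and mesenchyme moved in the same comparison. Lower in testis were 8 of 9 endothelial markers (median -2.85), 7 of 7 stromal fibroblast markers (median -3.37) and 6 of 7 smooth muscle markers (median -1.91), with 1 smooth muscle marker higher. Of all genes 35.9% were lower and 24.4% higher there. Lists of other ovarian cells were lower in testis as well, with 13 of 14 granulosa, 7 of 8 theca and steroidogenic and 7 of 8 leukocyte markers lower. The fall was therefore not particular to vessels and mesenchyme. Lists of testis cells differed, with 15 of 15 spermatocyte and spermatid markers higher, and 8 of 14 Sertoli markers higher and 4 lower. In mutant against wild-type ovary 5 of 9 endothelial markers (median -0.95) and 6 of 7 smooth muscle markers (median -1.07) were lower, and 1 of 7 stromal markers was lower and 1 higher. The shares of all genes in that comparison were 6.66% lower and 9.55% higher. The part of these markers in the members' differences was not tested. Of the 4, Foxs1 was the gene whose mutant ovaries were furthest above testis (0.72 ± 0.11).

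Foxh1, the partner of SMAD2 and SMAD3 in nodal signalling, read 3.88, 3.84 and 3.71 in mutant ovaries, 5.06, 5.08 and 5.17 in testes, and 3.84 and 4.32 in wild-type ovaries. It was higher in testis than in wild-type ovary (log2 difference 1.02 ± 0.16; adjusted p = 0.000191). Foxh1 lay under the median of all genes on all 8 arrays, so the ovary levels are close to background and no fold is given. The mutant difference from wild-type ovary was -0.27 ± 0.16 (adjusted p = 0.296), and it passed without wild-type ovary 1 (-0.51; adjusted p = 0.048). Foxe1, of the thyroid, was lower in testis than in wild-type ovary by -0.45 ± 0.14, and so was Foxi2, by -0.53 ± 0.14. Both lost the call without wild-type ovary 2, Foxe1 at -0.31 (adjusted p = 0.13) and Foxi2 at -0.41 (adjusted p = 0.0609). Foxe1 lost it also without testis 1 (-0.41; adjusted p = 0.0568) and with each array centred on its median (-0.36; adjusted p = 0.0621). Foxa1, a pioneer factor of endoderm, passed between mutant ovary and testis alone (0.39 ± 0.13; adjusted p = 0.0259), a call lost without testis 1 (0.30; adjusted p = 0.102), without mutant ovary 2 (0.32; adjusted p = 0.0891) and with centring (0.30; adjusted p = 0.0804).

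The other 18 members passed in none of the adult comparisons, with levels on single arrays between 3.13 and 7.52. Foxf2, Foxk1 and Foxp3 among them were given above. Mutant minus wild-type ovary was -0.07 ± 0.16 for Foxa2 and 0.28 ± 0.20 for Foxa3, which act in the liver. It was -0.16 ± 0.14 for Foxb2, 0.03 ± 0.11 for Foxd1, of kidney stroma, 0.05 ± 0.14 for Foxd2, -0.15 ± 0.16 for Foxd3, of neural crest, and -0.02 ± 0.14 for Foxd4. Foxe3, a lens factor, had -0.11 ± 0.14, Foxi1, of kidney and inner ear, -0.05 ± 0.13 and Foxi3 0.21 ± 0.12. Foxn1 had -0.01 ± 0.20, Foxn4 -0.09 ± 0.18, Foxr1 0.05 ± 0.17 and Foxr2 -0.08 ± 0.13. No adjusted p among them was under 0.05. Foxi3 was higher on all mutant arrays than on both wild-type ovary arrays, and Foxb1 and, by a narrow margin, Foxe3 were lower. In all, 21 members lay under the median of all genes on all 8 adult arrays, at 3.13 to 5.35, and 11 lay above it on all 8, at 5.56 to 10.76. For dim members a level is close to the array's background, and a difference that missed the threshold does not show that groups are alike. Of the members given a fold, Foxl2, Foxm1, Foxp2, Foxp4 and Foxq1 had adult arrays on both sides of that median, so the size of their folds is uncertain. Foxb1 had the most negative difference of the members that did not pass in mutant against wild-type ovary (-0.48, 95% interval -0.89 to -0.06), and it passed without mutant ovary 2 (-0.64; adjusted p = 0.0382).

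**Figure D3:**
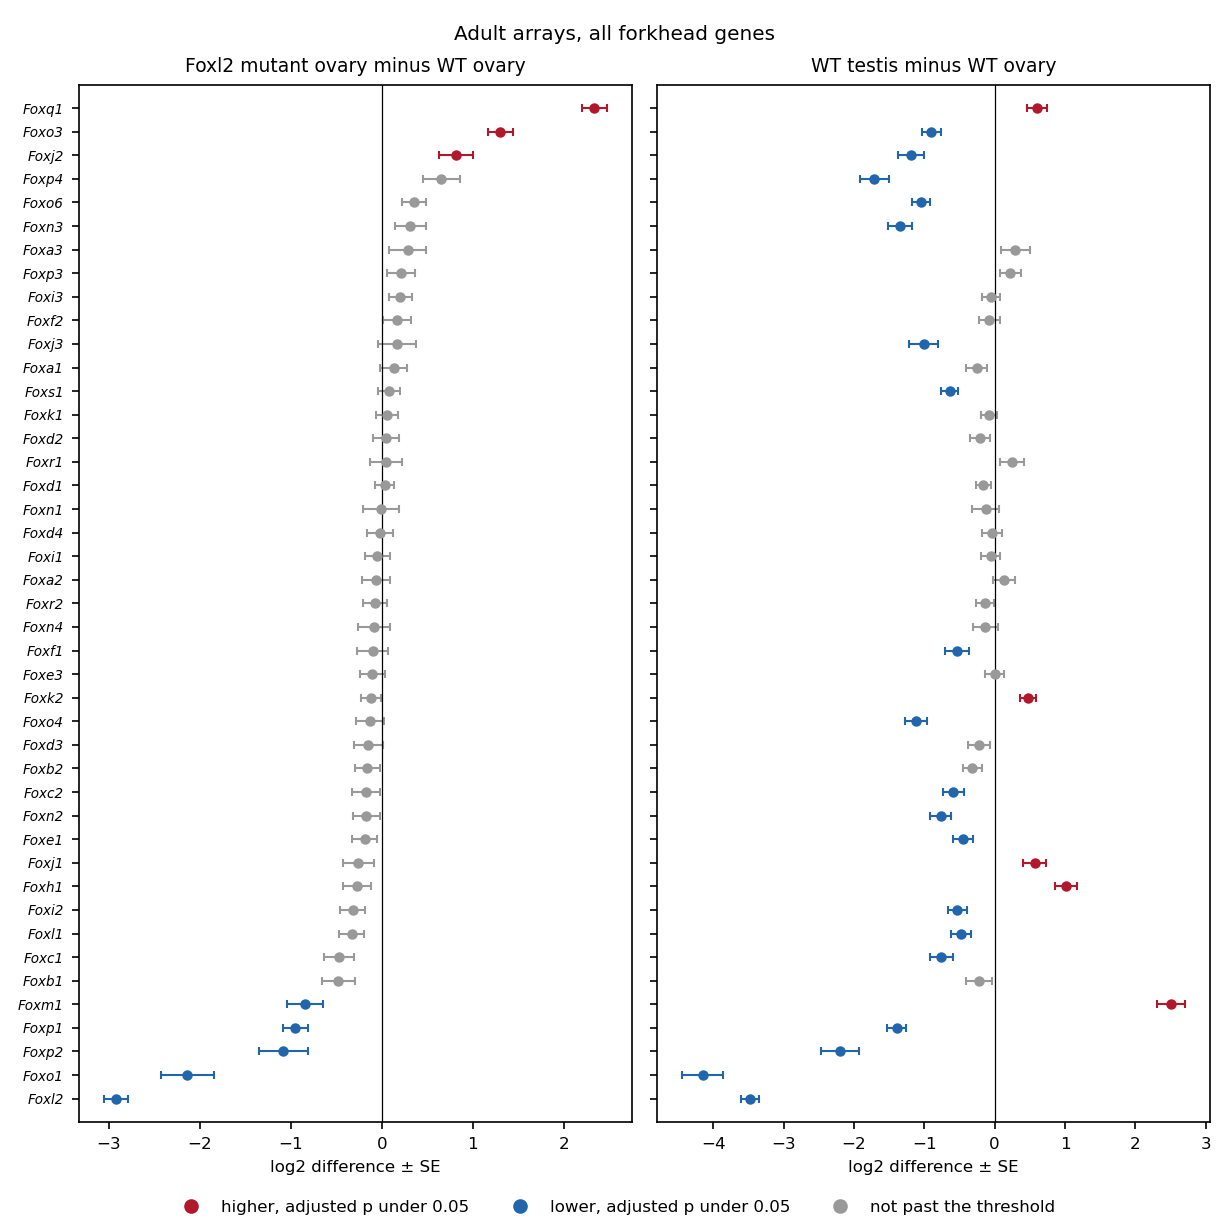
Log2 difference of all 43 forkhead genes in Foxl2 mutant ovary (left) and wild-type (WT) testis (right) from the same 2 WT ovaries; whiskers are SE and colours mark genes past the threshold. Members were ordered by the left panel, where 5 were lower and 3 higher, while 19 were lower and 5 higher in testis.

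In testis against wild-type ovary 24 of 43 members (55.8%) passed, near the 60.3% of all genes. Of the members 19 were lower and 5 higher, or 44.2% and 11.6%, against 35.9% and 24.4% of all genes. The members' median was -0.22 and that of all genes -0.15, so the median over all genes also lay on the side of lower levels in testis. The genes higher in testis were Foxm1, Foxh1, Foxq1, Foxj1 and Foxk2. Between mutant ovary and testis 21 members (48.8%) passed, against 61.8% of all genes, with 17 higher in mutant ovary and 4 lower. These are 39.5% and 9.3% of the members, beside 37.5% and 24.3% of all genes, and the share of higher members is near the background. The 4 lower were Foxm1 (-3.35 ± 0.18), Foxh1 (-1.29 ± 0.14), Foxj1 (-0.83 ± 0.15) and Foxk2 (-0.60 ± 0.10). The members furthest above testis in mutant ovary were Foxp4 (2.37 ± 0.18), Foxo3 (2.21 ± 0.12), Foxo1 (2.01 ± 0.26) and Foxj2 (2.01 ± 0.17). The median here was 0.25 for members and 0.14 for all genes. The adult comparisons share arrays in pairs, so a member's values in them are not independent of each other.

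In newborn ovaries 1 of 37 members (2.7%) passed, against 0.324% of all genes, and this member was Foxl2. Its signal was 186.4 and 153.7 in Foxl2 KO pools, against 814.5 and 829.9 in wild-type pools. Both KO pools were far below both wild-type pools. The difference on the log2(signal + 16) scale was -2.18 ± 0.21 (4.52-fold lower; adjusted p = 0.0238), and leaving out any 1 pool raised the adjusted p above 0.05 (0.0854 to 0.333) at differences of -2.30 to -2.05. A second Foxl2 probe set was dim, at 7.2 and 4.3 in KO pools and 11.5 and 12.3 in wild-type pools.

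No other member passed at P3, and the other 36 had differences of -0.76 to 1.37. With 2 pools a group the intervals were wide. Of the members called in adult mutant ovaries, Foxo1 gave 1576.1 and 1478.4 in KO pools, against 1706.3 and 1961.4 in wild-type pools. Both KO pools were lower, by -0.26 ± 0.13 (95% interval -0.58 to 0.07; adjusted p = 0.652). Of the other Foxo1 probe sets, the brighter ones gave -0.15 and -0.41 and a dim one 0.75. Foxo3 gave 5389.8 and 5678.5 in KO pools, against 3350.7 and 6506.5 in wild-type pools, which enclosed the KO values (0.24 ± 0.29). In another Foxo3 probe set both KO pools were higher, at 1292.9 and 1340.3 against 1082.4 and 1162.4 (0.23), and a dim one gave -0.53. Foxq1 gave 67.0 and 72.4 in KO pools, against 66.5 and 71.8 in wild-type pools. The pools overlapped, with a difference of 0.01 ± 0.34 (95% interval -0.80 to 0.82), and Foxq1 lay under the median of all genes on all 4 arrays.

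Foxp1, Foxp2, Foxm1 and Foxj2 did not pass at P3 either. Foxp1 gave 1580.1 and 1186.1 in KO pools, against 2869.0 and 1342.8 in wild-type pools (-0.52 ± 0.35), and its 8 probe sets ranged from -0.99 to 0.66. Foxp2 gave 115.0 and 235.0 in KO pools, against 202.6 and 269.9 in wild-type pools (-0.46 ± 0.39). Both genes had overlapping groups in the probe sets used. The other Foxp2 probe sets, all dimmer, gave -0.19, -0.46, -1.43, -0.37 and -1.05. In each of them both KO pools lay below both wild-type pools. Foxm1 gave 637.8 and 558.2 in KO pools, against 502.2 and 671.4 in wild-type pools (0.04 ± 0.21). A dimmer Foxm1 probe set gave 157.6 and 165.9 in KO pools, against 60.8 and 125.5 in wild-type pools, a difference of 0.77. The remaining Foxm1 probe sets gave 0.0049 and 0.09. None of the 15 measured FOXM1 targets passed at P3 in either direction (0 of 15, median 0.04), and Top2a differed by 0.08 ± 0.20. Only 0.324% of all genes passed, so this count of 0 says little about the list. Foxj2 gave 1171.7 and 1210.3 in KO pools, against 1105.1 and 1161.1 in wild-type pools (0.07 ± 0.13). Its second, dimmer probe set gave 180.3 and 156.7 against 39.4 and 74.7, a difference of 1.38, so the 2 probe sets of Foxj2 disagree in size.

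**Figure D4:**
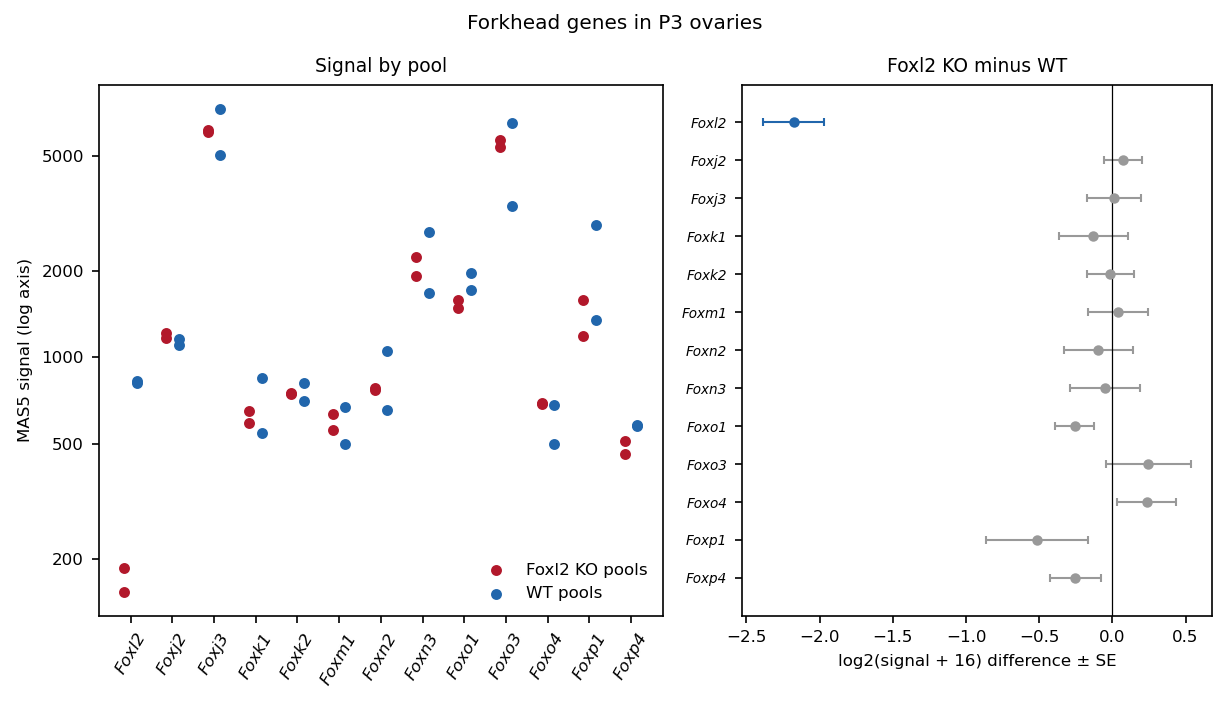
Left, MAS5 signal on a log axis of Foxl2 and of the 12 forkhead genes above the median of all genes on all 4 P3 arrays, with each point a pool; right, difference of Foxl2 KO from wild-type (WT) pools on the log2(signal + 16) scale with SE. Foxl2 was 186.4 and 153.7 in KO pools and 814.5 and 829.9 in WT pools, while the 12 others differed by -0.52 to 0.24.

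The 12 members above the median of all genes on all 4 P3 arrays had signals of 460.3 to 7295.3. Foxj3 gave 6153.6 and 6070.5 in KO pools, against 5056.5 and 7295.3 in wild-type pools. The KO values lay between those of the wild-type pools, and the same held for Foxk1, Foxk2, Foxn2 and Foxn3. Foxn3, for example, gave 2229.5 and 1909.5 in KO pools, against 2728.0 and 1672.3 in wild-type pools (-0.05 ± 0.24). Foxo4 gave 697.1 and 686.3 in KO pools, against 684.0 and 501.4 in wild-type pools (0.23 ± 0.20), and Foxp4 gave 512.0 and 460.3 in KO pools, against 584.4 and 578.4 in wild-type pools (-0.25 ± 0.18). For these members both KO pools lay on the same side of both wild-type pools, without passing. The 24 members under the median on all 4 arrays had signals of 1.1 to 275.7. Among these, Foxh1 had the largest positive difference, with 125.6 and 77.5 in KO pools against 36.1 and 22.1 in wild-type pools (1.37 ± 0.40; adjusted p = 0.314). Foxp3 gave 80.6 and 113.4 in KO pools, against 53.2 and 27.2 in wild-type pools (1.03 ± 0.41; adjusted p = 0.502). In both genes the KO pools were above the wild-type pools, and neither passed. Of the 37 members, 6 had both KO pools above both wild-type pools and 8 had both below, Foxl2 among those 8, while 23 overlapped. Over all genes 19.3% lay fully above and 19.7% fully below, so these member counts are near the background and are given as a description. The both-higher members were Foxf1, Foxh1, Foxj1, Foxj2, Foxo4 and Foxp3. Besides Foxl2, the both-lower ones were Foxb2 (-0.73 ± 0.40), Foxd3 (-0.76 ± 0.44), Foxi1 (-0.67 ± 0.43), Foxl1 (-0.35 ± 0.35), Foxn4 (-0.40 ± 0.35), Foxo1 and Foxp4, and of these only Foxo1 and Foxp4 lay above the median of all genes on all 4 arrays. Foxf1 gave 275.7 and 248.9 in KO pools, against 175.5 and 231.9 in wild-type pools (0.35 ± 0.27). Overlapping dim members included Foxa1 (0.36 ± 0.44), Foxa2 (0.25 ± 0.53), Foxa3 (0.60 ± 0.46), Foxb1 (-0.02 ± 0.49), Foxc1 (0.13 ± 0.37) and Foxc2 (0.30 ± 0.77). The same held for Foxd1 (-0.0045 ± 0.34), Foxd2 (0.25 ± 0.66), Foxd4 (-0.25 ± 0.45), Foxe3 (-0.17 ± 0.36), Foxf2 (-0.07 ± 0.37), Foxn1 (0.097 ± 0.35) and Foxs1 (-0.30 ± 0.41). A dimmer Foxc1 probe set had -1.55 in place of 0.13, and the Foxh1 probe sets other than the one used had 0.82 and 0.05.

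Genes around the family at P3 were likewise mostly below the threshold. Of 9 FOXL2 targets only Nr5a2 passed (-2.24 ± 0.26; adjusted p = 0.0419), and Fst had -1.40 ± 0.20 (adjusted p = 0.0641). No FOXO regulator of 16, no FOXO target of 24 and no FOXJ1 or cilia gene of 18 passed in either direction. Of all genes only 0.324% passed at P3, so counts of 0 in lists of this size say little about the lists. The cilia list had a median of 0.32 and array means of 7.29 and 7.43 in KO pools, against 7.04 and 7.04 in wild-type pools. Granulosa markers had array means of 8.42 and 8.50 in KO pools, against 9.32 and 9.44 in wild-type pools. Of these markers 3 of 14 were lower, beside 0.187% of all genes. They were Hsd17b1, Foxl2 itself and Nr5a2, which was counted above as a FOXL2 target.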

How the data were processed

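Total RNA of whole ovaries, or of part of a testis, was measured on arrays, per the labels. The deposited adult values are log2 RMA levels made by the authors in Expression Console (Affymetrix), per the submitters' processing notes. The P3 table, as deposited, holds linear intensity (MAS5 signal). The sources used here name no software versions. The labels give CodeLink labelling for P3, while MAS5 and the probe set names have Affymetrix form; which is right was not settled. Array medians were 4.83 to 4.94 (adult, log2) and 116.6 to 126.8 (P3, signal). The number of arrays limits the precision.

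Genes were named from the platform annotation, updated by gene identifier through RefSeq (GRCm38.p6, names only). A single gene was listed for 21789 of 35557 adult and 34958 of 45101 P3 probe sets, several for 1621 and 932, and 12147 and 9211 were unnamed here. The probe set of highest mean stood for each gene, and 2 P3 probe sets listed for a forkhead gene together with other genes were not used. Tests used limma 3.58.1 in R 4.3.3 (lmFit, eBayes with an intensity trend, two-sided). The 8 adult arrays were fitted together and the 4 P3 arrays alone, as log2(signal + 16), which understates changes of dim genes. The fit was checked on simulated data. Promoter windows came from RefSeq, 250 bases before each start.

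Named with values per array are Foxl2, members past the threshold in mutant or KO against wild-type ovary, and the 12 largest testis differences past the threshold. From each list up to 4 genes with the largest differences past the threshold are named. Exceptions, chosen after their values were seen, are Kitl, Amhr2, Foxj1, the FOXM1 targets that did not pass, the P3 values of Top2a and Fst, and the values per pool of P3 members other than Foxl2. Other members are given by group means or difference. Members and lists were chosen with earlier results of these data known. Alternatives were other fits, probe set rules, filters, scalings and pseudocounts, a 2-fold requirement, a replicate block and leaving out each array.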

Additional observations from a re-analysis of the deposited data

Results flagged for a closer look

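Foxj1 had opposite differences at the 2 ages, with every array of a group on the same side. In adults all 3 mutant ovaries were below both wild-type ovaries, by -0.26 on the log2 scale, while at P3 both KO pools, at 109.6 and 94.3, were above both wild-type pools, at 53.1 and 57.9, a difference of 0.72. The difference between the ages was not tested, because the arrays differ, and neither value passed the threshold. At P3 19.3% of all genes had both KO pools above both wild-type pools and 19.7% had both below. For adults the share of all genes so separated was not counted. Foxj1 lay under the median of all genes on every array of both ages, so its levels are close to background.

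Foxp4 was higher in all 3 adult mutant ovaries than in both wild-type ovaries, by 0.66, and lower in both P3 KO pools than in both wild-type pools, by -0.25. This difference was likewise not tested, and neither value passed. The other P3 probe sets of Foxp4 gave 0.36 and 0.02, so the sign at P3 depends on the probe set.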

How the results depend on the processing

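No member past the threshold changed sign under any alternative. Recomputed values were counted over all members, called ones included. The sign changed, with neither value past the threshold, in 22 of 490 for mutant against wild-type ovary and 15 of 490 for testis against wild-type ovary. It did so in 21 of 533 for mutant ovary against testis and in 42 of 420 at P3. The share among uncalled members alone is therefore higher. Of the 8 members called in mutant against wild-type ovary, Foxl2, Foxo1, Foxo3 and Foxq1 kept their calls under all 12 alternatives. Foxp1 lost its call with the 2-fold requirement alone, Foxj2 under 4 alternatives, Foxm1 under 5 and Foxp2 under 4 of the 11 in which it was tested. The count of 8 was 5 with only the 2 groups in the fit, where 1731 genes passed in place of 3232, and 5 with at least 2-fold in addition (1119 genes). Leaving out 1 array gave 6 to 8.

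For testis against wild-type ovary the count of 24 was 15 among genes above the median level, where fewer members are tested, and 12 with at least 2-fold in addition, and 22 to 24 without 1 array. For mutant ovary against testis the count of 21 was 11 with at least 2-fold in addition and 18 to 22 without 1 array. With each array centred on its median these counts were 23 and 19. At P3 the count of 1 was 0 without the intensity trend, 0 with the mean of all probe sets and 0 to 0 without any 1 pool, where a lone pool is assumed to vary like the others. The P3 call of Foxl2 was lost under 6 of 12 alternatives. The number of genes passing at P3 was 59 in the reported fit and between 0 and 305 under the alternatives, with 195 among genes above the median and 305 with the replicate block. The cause of the changes was not tested.

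With the replicate number as a block the member counts were 7, 24, 21 and 1, and Foxj2 lost its call in mutant against wild-type ovary (0.77; adjusted p = 0.0526). Departures of same-numbered arrays from their group means correlated by 0.0683 and -0.0025 between mutant and wild-type ovary and by 0.042 at P3. In a group of 2 arrays these departures mirror each other, so such values say little. Between mutant ovary and testis same-numbered arrays had 0.079, 0.060 and 0.058, and differently numbered arrays had -0.060 to -0.0016. The reported fits did not take the numbers as pairs, and whether the numbers mark a shared batch was not tested. Groups of 2 and 3 arrays limit every comparison.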
